A study of Mus musculus with 24 samples.

Results

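Fatty acid binding, activation and lipolysis were followed through 9 genes in astrocyte nuclei of the mouse spinal dorsal horn: Fabp7, Fabp5, Angptl4, Lpl, Pla2g3, Acsl3, Acsl6, Acsbg1 and Cpt1a. They were chosen by gene symbol, with earlier results of these data known. All 9 were present in each of the 4 deposited tables of normalized levels, which together hold 15709 genes. All pups carried the genotype Aldh1l1-creERT2(+/-); R26-LSL-Sun1.GFP(+/-), in which a tamoxifen-inducible Cre driven by the astrocyte gene Aldh1l1 switches on a GFP-tagged nuclear envelope protein. In incised pups 1 hindpaw was cut at postnatal day 3, whereas naive pups had isoflurane alone, so that the controls were exposed to the anaesthetic too. GFP-positive nuclei were sorted from the dorsal horn on the incised side after 1, 7 or 21 days. These times are postnatal days 4, 10 and 24 (P4, P10 and P24), with 4 incised and 4 naive pups at each age and 1 library per mouse. The measurement is of nuclear RNA from whichever cells had recombined, and the time of Cre induction is not given in the sources used here.

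Free fatty acids are poorly soluble, and cells carry them on small cytosolic fatty acid binding proteins. They reach a cell partly through lipolysis, in which lipases such as lipoprotein lipase release them from lipoprotein triglycerides and phospholipases A2 release them from membrane phospholipids. Before use, acyl-CoA synthetases activate a fatty acid by joining it to coenzyme A. The acyl-CoA then enters membrane or storage lipids, or passes into mitochondria through carnitine palmitoyltransferase 1 for oxidation. In the nervous system, brain lipid binding protein (Fabp7) is widely used as a mark of radial glia and immature astrocytes, and the bubblegum synthetase Acsbg1 is known as an astrocyte-enriched gene.

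The promoters of 4 of these genes are shown first because their levels moved in opposite directions with age: Fabp7 fell, while the synthetase genes Acsl3, Acsl6 and Acsbg1 rose. Each is the RefSeq window on GRCm38.p6 from 250 bases before to 50 bases after an annotated start, written in the direction of the gene. RefSeq windows matched 5 of the 9 genes. Fabp7 lies on the plus strand (chr10:57784673-57784972), as do Acsl3 (chr1:78657575-78657874) and the most upstream of the 3 windows of Acsl6 (chr11:54303574-54303873), whereas Acsbg1 lies on the minus strand (chr9:54661836-54662135). Capitals mark CCAAT boxes (CCAAT) and GC boxes (GGGCGG), searched on both strands.
Fabp7: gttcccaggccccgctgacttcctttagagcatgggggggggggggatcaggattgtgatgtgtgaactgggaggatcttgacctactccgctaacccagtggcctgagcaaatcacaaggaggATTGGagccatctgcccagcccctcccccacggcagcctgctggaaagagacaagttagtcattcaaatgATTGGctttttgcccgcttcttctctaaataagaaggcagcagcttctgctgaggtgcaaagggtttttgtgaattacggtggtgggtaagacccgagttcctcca
Acsl3: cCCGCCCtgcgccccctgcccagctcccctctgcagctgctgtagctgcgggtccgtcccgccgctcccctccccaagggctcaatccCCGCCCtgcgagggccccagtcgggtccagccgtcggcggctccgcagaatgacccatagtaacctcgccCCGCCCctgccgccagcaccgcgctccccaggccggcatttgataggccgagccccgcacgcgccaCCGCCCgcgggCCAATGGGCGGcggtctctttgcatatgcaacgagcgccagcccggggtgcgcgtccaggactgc
Acsl6: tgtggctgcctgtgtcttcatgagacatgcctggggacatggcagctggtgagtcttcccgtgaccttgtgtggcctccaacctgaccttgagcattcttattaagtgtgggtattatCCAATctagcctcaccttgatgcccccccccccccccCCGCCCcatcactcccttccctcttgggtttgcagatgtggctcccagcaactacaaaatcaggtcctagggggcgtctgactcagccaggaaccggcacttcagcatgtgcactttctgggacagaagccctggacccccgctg
Acsbg1: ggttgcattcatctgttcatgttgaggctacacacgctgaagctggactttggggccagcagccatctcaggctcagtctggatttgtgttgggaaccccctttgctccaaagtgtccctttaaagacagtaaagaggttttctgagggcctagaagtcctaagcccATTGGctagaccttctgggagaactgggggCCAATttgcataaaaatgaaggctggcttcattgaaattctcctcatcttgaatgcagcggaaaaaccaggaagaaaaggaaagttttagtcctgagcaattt
Over 32851 promoter windows of this length, 37.4% held a CCAAT box and 35.7% a GC box. The Fabp7 window held 2 CCAAT boxes and no GC box, and the Acsbg1 window likewise held 2 CCAAT boxes and no GC box. In Acsl3 the window held 5 GC boxes, the last of which follows directly on its 1 CCAAT box, and in Acsl6 it held 1 of each. A TATA box (TATAAA), present in 13.6% of all windows, was found in none of the 4. The nuclear receptor half-site AGGTCA, which 16.3% of windows hold, occurred once in Fabp7 and at 2 positions in the Acsl6 window shown. The other Acsl6 windows did not hold it. A PPAR direct repeat, meaning 2 such half-sites with 1 base between them, was in 0.0396% of windows and in none of these. These matches describe the letters of the windows only.

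Values below are the authors' normalized levels, which have no unit beyond their own table, and the sequencing depth behind them is unknown. Column sums of normalized levels ran from 4606558 to 5879809 in the table of naive ages. The astrocyte label was checked with 12 marker genes, all 12 of which were in every table. Their summed level in naive pups had a median of 84250 at P4, 128200 at P10 and 129800 at P24. Single astrocyte genes did not all follow this sum: from P4 to P24 the glutamate transporter gene Slc1a3 fell by 2.07 on the log2 scale (SE 0.15, limma adjusted p = 4.37e-10), Aldh1l1 fell by 0.81 (SE 0.16) and Sox9 fell by 0.52 (SE 0.16), while Aqp4 did not pass at 0.29 (SE 0.16). Markers of oligodendrocytes, the myelinating glia, differed between ages in the same libraries: the summed level of 12 such genes ran from 1394 to 2566 at P4, from 12530 to 22200 at P10 and from 81850 to 94960 at P24. Markers of oligodendrocyte precursors were also highest at P24, with medians of 2051, 2624 and 5663, and those of neurons had medians of 7705, 6181 and 12230. Endothelial markers (9 of 11, Tek and Ly6c1 not) were lower at P24, from 282 to 340 against 415 to 596 at P4. Microglia markers (10 of 12, Aif1 and Itgam not) were lower at P10, from 642 to 905, than at P4, from 1018 to 1266. The part of these other cell types, and of the fall of single astrocyte genes, in the age results was not tested. In sorted bulk nuclei, fewer cells of a type and less RNA per cell cannot be told apart. The P10 naive replicate 4 and the P10 incision replicate 4 have sample titles that contradict their other labels. Their titles read P10 incision and P24 naive, respectively. Summed oligodendrocyte markers of the latter were 25320, within the range of the other P10 incision libraries (12330 to 27320). In the P24 naive libraries, normalized separately, they ran from 94580 to 108300. The groups used here follow the characteristics and the deposited sample sheet. Calls of the 9 genes at P10 were therefore repeated without these 2 libraries. Calls of other genes were not checked in this way.

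Across normal development, the set split into genes that fell, genes that rose and genes that did not pass the test. By limma's moderated F test over the 12 naive libraries, 7 of the 9 genes differed between ages at a Benjamini-Hochberg adjusted p under 0.05, against 24.8% of the 14985 genes tested. From P4 to P24 the binding proteins Fabp7 and Fabp5, the lipase inhibitor Angptl4 and the phospholipase Pla2g3 fell, 4 genes where 7.33% of all genes were called lower. The synthetases Acsl3, Acsl6 and Acsbg1 rose over the same interval, 3 genes where 10.8% were called higher. The 9 genes were chosen with earlier results of these data known, so counts here and below describe the set and do not test it. Lpl and Cpt1a were not called in any comparison of ages. Leaving out P10 naive replicate 4 left these 7 calls from P4 to P24 in place. However, that library enters the comparison of P4 with P24 only through the shared spread and the sex term. Without it, the calls from P4 to P10 also stayed for Angptl4, Pla2g3, Acsl3, Acsl6 and Acsbg1, with log2 changes of -1.29, -1.75, 2.09, 1.12 and 0.88. From P10 to P24 without it, Fabp7 at -2.48, Fabp5 at -1.32, Angptl4 at -2.36, Pla2g3 at -3.18 and Acsl6 at 0.73 stayed called, Acsl3 at 0.48 stayed just under the threshold (limma adjusted p = 0.0495) and Cpt1a joined them. Fold changes are on the log2(value + 1) scale with sex as a term, and every age comparison here comes from 1 fit to naive pups.

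**Figure D1:**
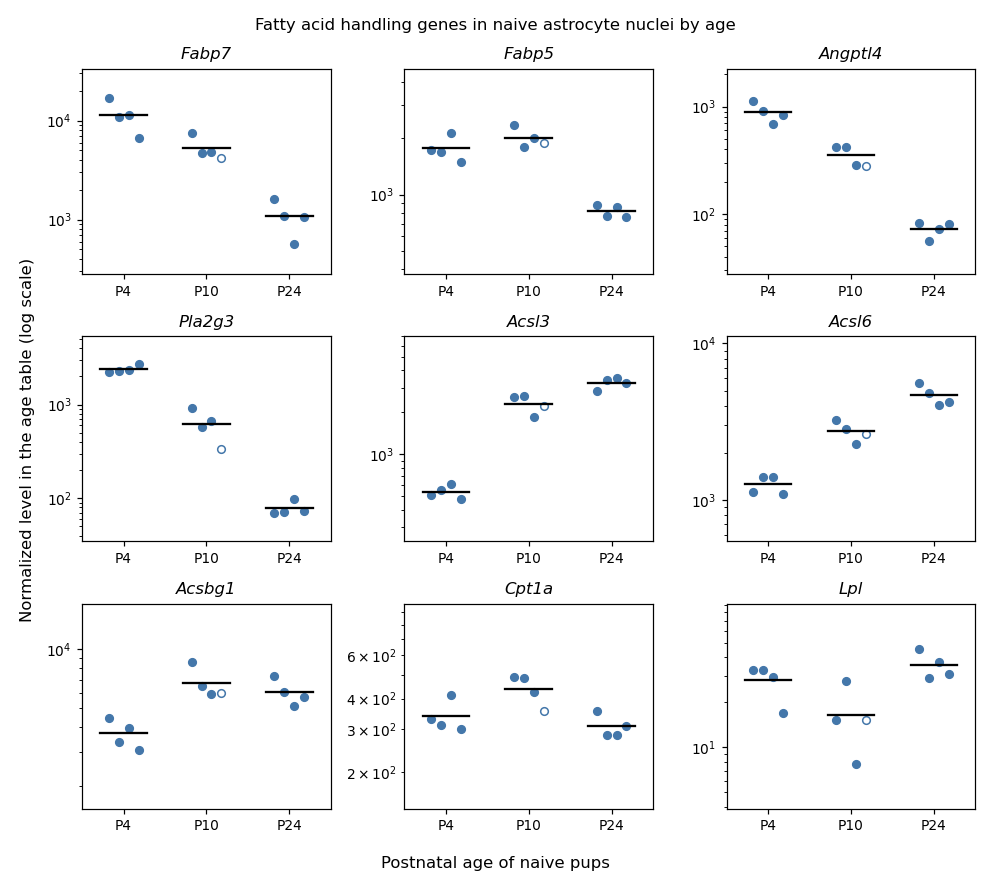
Normalized level of each of the 9 genes in the 12 naive libraries (vertical axis, log scale, separate range per panel) by postnatal age. Points are libraries, bars are means of 4, and the open point is the P10 naive library with conflicting labels; Pla2g3 runs from a mean of 2395 at P4 to 77.8 at P24, while Acsl3 runs from 537 to 3257.

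Fabp7 binds long-chain polyunsaturated fatty acids in glia (protein-coding, GRCm38 chromosome 10, 57784881 to 57788450, plus strand). Its normalized level in naive pups was 16760, 10880, 11288 and 6742 at P4, then 7521, 4723, 4846 and 4168 at P10, and 1606, 1082, 566 and 1062 at P24. All P24 libraries lay below all P10 libraries, but the lowest P4 library lay inside the range at P10. The mean fell from 5314 ± 1500 (SD, n = 4) at P10 to 1079 ± 425 at P24, a log2 change of -2.44 (SE 0.33, limma adjusted p = 0.000541). From P4, where the mean was 11417 ± 4111, the log2 change to P24 was -3.51 (SE 0.33, adjusted p = 1.57e-05). The step from P4 to P10 had a log2 change of -1.07 (SE 0.32) and did not pass in limma, with an adjusted p of 0.0508. That call sits at the threshold and passed under 8 of the alternatives, among them a pseudocount of 10 (adjusted p = 0.0380) and quantile normalization (adjusted p = 0.0388). Under the other alternatives it did not pass, with an adjusted p of 0.100 without P10 naive replicate 4 and of 0.131 at most.

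Fabp5, the epidermal fatty acid binding protein, also carries fatty acids toward nuclear receptors (chromosome 3, 10012548 to 10016607, plus strand). Its level was 1724, 1694, 2145 and 1494 at P4, and 2354, 1805, 2000 and 1884 at P10, so these ages overlapped. At P24 it was 884, 772, 856 and 757, below every younger library. The change from P10 to P24 was -1.31 on the log2 scale (SE 0.15, limma adjusted p = 1.67e-06), while that from P4 to P10 was 0.19 (SE 0.15, adjusted p = 0.419). Its mean was 2011 ± 243 (SD, n = 4) at P10 and 1764 ± 273 at P4, so that P10 was not the lower of these ages, as it was for Fabp7. Transcripts of 2 pseudogenes share at least 95% identity over at least 200 bases with Fabp5, and neither is in the tables, so reads of near-identical origin may be included in its level.

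Angptl4 encodes a secreted inhibitor of lipoprotein lipase and is a known PPAR target (chromosome 17, 33773750 to 33781830, minus strand). Its level was 1130, 913, 695 and 828 at P4, 419, 417, 287 and 282 at P10, and 83.3, 55.6, 73.1 and 80.7 at P24. The 3 ages did not overlap. It fell at both steps, by a log2 change of -1.35 from P4 to P10 (SE 0.20, limma adjusted p = 6.37e-05) and of -2.31 from P10 to P24 (SE 0.20, adjusted p = 5.66e-08). Its level at P24 was thereby 0.0792 times that at P4 on the fitted scale.

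Lpl, the enzyme that Angptl4 inhibits, had the lowest level of the 9 genes at every age (chromosome 8, 68880491 to 68907448, plus strand). Its level was 33.0, 33.1, 29.5 and 17.1 at P4, 15.2, 27.7, 7.76 and 15.1 at P10, and 45.9, 29.0, 37.3 and 30.8 at P24. The P4 and P10 libraries overlapped, and so did P4 and P24, whereas every P24 library was above every P10 library. No step passed in limma: the log2 change was -0.82 from P4 to P10 (SE 0.43, adjusted p = 0.225) and 1.03 from P10 to P24 (SE 0.44, adjusted p = 0.134). The 95% interval of the P4 to P24 change, from -0.69 to 1.12, covers changes in either direction.

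Pla2g3 encodes a secreted group III phospholipase A2, which releases a fatty acid and a lysophospholipid from membranes (chromosome 11, 3488284 to 3499350, plus strand). Its level was 2249, 2295, 2332 and 2703 at P4, 918, 576, 672 and 339 at P10, and 69.4, 70.9, 97.1 and 73.8 at P24. The ages did not overlap, and the coefficient of variation between libraries was 8.70% at P4 and 38.3% at P10. The decline was the steepest of the 9 genes at each step, with a log2 change of -2.02 from P4 to P10 (SE 0.22, limma adjusted p = 1.53e-06) and of -2.97 from P10 to P24 (SE 0.22, adjusted p = 1.11e-08). From P4 to P24 the log2 change was -4.98 (SE 0.22, adjusted p = 4.53e-13), to 0.0316 times the starting level. The lowest P10 library is the one with conflicting labels, and without it the P4 to P10 change was -1.75 (limma adjusted p = 1.81e-06). Pla2g3 overlaps Inpp5j on the opposite strand, and whether the counting used strand is not given in the sources used here, so reads of the 2 genes may be mixed.

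Acsl3 encodes a long-chain acyl-CoA synthetase of the endoplasmic reticulum and lipid droplets (chromosome 1, 78657825 to 78707743, plus strand). Its level was 510, 553, 611 and 474 at P4, 2558, 2597, 1852 and 2232 at P10, and 2852, 3413, 3525 and 3239 at P24. The ages did not overlap, and most of the rise lay between P4 and P10. It rose by 2.10 on the log2 scale in that interval (SE 0.14, limma adjusted p = 1.36e-09), a 4.28-fold increase. The further 0.47 from P10 to P24 (SE 0.15, adjusted p = 0.0331) was called, but not without trend and robust settings (adjusted p = 0.119) nor when any 1 of 4 libraries was left out (P10 naive replicate 3 or P24 naive replicates 2, 3 and 4, adjusted p from 0.0744 to 0.152). Acsl3 shares transcript sequence with Utp14b on the same strand, and how reads were split between them is not given in the sources used here. Utp14b had levels from 6.33 to 22.9 at P4, from 30.3 to 73.0 at P10 and from 16.2 to 38.5 at P24. It also rose from P4 to P10, by 1.87 on the log2 scale (SE 0.48, limma adjusted p = 0.0113).

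Acsl6, the brain-enriched synthetase known for activating docosahexaenoic acid, lies on chromosome 11 (54303798 to 54364756, plus strand). Its level was 1125, 1404, 1406 and 1089 at P4, 3253, 2857, 2275 and 2632 at P10, and 5572, 4852, 4024 and 4253 at P24. Each age stood above the one before with no overlap. It rose by 1.13 on the log2 scale from P4 to P10 (SE 0.15, limma adjusted p = 1.11e-05) and by a further 0.72 from P10 to P24 (SE 0.15, adjusted p = 0.00164). Acsl6 overlaps the annotated gene Gm12224 on the opposite strand, with the same uncertainty about strand.

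Acsbg1, which activates long and very long chain fatty acids, lies on chromosome 9 (54604877 to 54661870, minus strand). Its level was 4453, 3366, 3983 and 3063 at P4, 8567, 6460, 5911 and 6014 at P10, and 7337, 6037, 5119 and 5704 at P24. The P4 libraries were below all others, and P10 and P24 overlapped. It rose by 0.86 on the log2 scale from P4 to P10 (SE 0.15, limma adjusted p = 0.000316). The change from P10 to P24 was -0.20 (SE 0.15, adjusted p = 0.447), with a 95% interval from -0.51 to 0.11. Acsl6 rose by 0.72 (SE 0.15) over the same step, and the difference between these genes was not tested.

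Cpt1a encodes the liver-type carnitine palmitoyltransferase 1 of the outer mitochondrial membrane, the regulated entry to beta-oxidation (chromosome 19, 3322334 to 3385733, plus strand). Its level was 331, 313, 412 and 299 at P4, 488, 483, 424 and 355 at P10, and 356, 284, 285 and 310 at P24. The libraries of the 3 ages overlapped. The log2 change was 0.37 from P4 to P10 (SE 0.18, limma adjusted p = 0.187) and -0.51 from P10 to P24 (SE 0.18, adjusted p = 0.0664). Without the P10 library with conflicting labels the latter was -0.59 and passed (adjusted p = 0.0385).

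**Figure D2:**
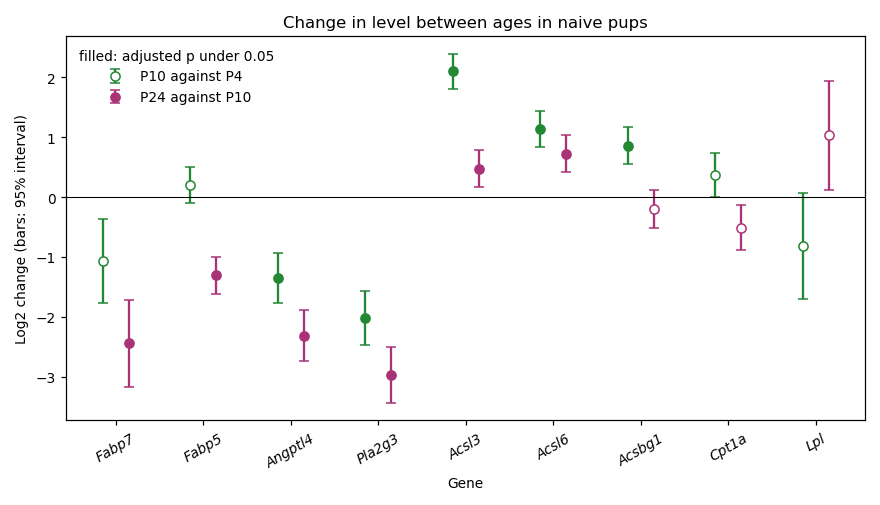
Log2 change of the 9 genes in naive pups from P4 to P10 (green) and from P10 to P24 (purple), with 95% intervals; filled points passed an adjusted p of 0.05 in limma. The largest fall is Pla2g3 from P10 to P24 at -2.97, and the largest rise is Acsl3 from P4 to P10 at 2.10.

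By interval, 3 of the 9 genes rose from P4 to P10 (Acsl3, Acsl6 and Acsbg1), where 7.55% of all genes were called higher, and 2 fell (Angptl4 and Pla2g3), where 5.58% were called lower. From P10 to P24, 2 rose (Acsl3 and Acsl6), where 7.59% were called higher, and 4 fell (Fabp7, Fabp5, Angptl4 and Pla2g3), where 5.51% were called lower. Over all genes the median log2 change was 0.01 from P4 to P24, and over the 9 genes it was -0.15. Summed oligodendrocyte markers were higher at each later age, from a median of 2477 at P4 to 20630 at P10 and 89430 at P24, and their part in the rise of the synthetases and the fall of the other genes was not tested. In the authors' deposited table, a likelihood ratio test of age gave adjusted p-values from 1.69e-77 (Pla2g3) to 8.47e-06 (Acsbg1) for the same 7 genes, 0.0515 for Cpt1a and 0.188 for Lpl.

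Per kilobase of transcript, the order of the genes changed with age. Neighbours in the order are called overlapping where their means ± 1 SD overlap. At P4, Fabp7 led with 13560 ± 4883 (SD, n = 4) normalized units per kilobase, followed by Fabp5 at 1788 ± 277, Acsbg1 at 1290 ± 216 and Pla2g3 at 933 ± 81.1. Acsl6 at 406 ± 55.7, Angptl4 at 269.5 ± 55.2, Acsl3 at 171 ± 18.8 and Cpt1a at 78.5 ± 11.7 came next, and no neighbours overlapped. At P10, Fabp7 still led with 6312 ± 1782. Acsbg1 at 2340 ± 432 and Fabp5 at 2037 ± 246 overlapped, as did Acsl6 at 889 ± 132 and Acsl3 at 736 ± 110, and Angptl4 at 106 ± 23.3 and Cpt1a at 101 ± 14.4, with Pla2g3 at 244 ± 93.5 between these pairs. At P24, Acsbg1 led with 2100 ± 326, followed by Acsl6 at 1509 ± 224, Fabp7 at 1281 ± 505, Acsl3 at 1038 ± 93.9 and Fabp5 at 828 ± 63.5. Fabp7 overlapped with both of its neighbours, Acsl6 and Acsl3, and by the same measure also with Acsbg1 and Fabp5. Pla2g3 at 30.3 ± 5.07 and Angptl4 at 22.1 ± 3.78 overlapped with each other and lay below Cpt1a at 71.5 ± 7.87. Lpl was last at each age, with 6.85 ± 1.85, 3.99 ± 2.01 and 8.69 ± 1.86.

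Correlations among the genes within the naive libraries are given as a description. Across the 12 libraries, which fall into 3 ages and share their normalization, Pearson's r of log2 levels was 0.981 for Angptl4 with Pla2g3 and 0.960 for Fabp7 with Angptl4, and it was 0.954 for Acsl3 with Acsl6. Fabp5, which did not fall from P4 to P10, had lower values with the other falling genes, 0.864 with Fabp7, 0.828 with Angptl4 and 0.825 with Pla2g3. Over 11545 other genes with a mean of at least 50, the gene most like Fabp7 was Rnf180 (r = 0.988), followed by the growth factor gene Ptn (0.985) and Fmo1 (0.982). Angptl4 was nearest to Pla2g3, then to Ptn (0.979) and the phosphatase gene Ptprz1 (0.976), and Pla2g3 was nearest to Angptl4, then to Cpe (0.979) and the matrix gene Tnc (0.977). Fabp5 was nearest to Ppp1r14c (0.973), Trib2 (0.973) and Id3 (0.964). Acsl3 was nearest to the glycogen phosphorylase gene Pygm (0.989), Apln (0.984) and Chil1 (0.983). Acsl6 was nearest to the gap junction gene Gjb6 (0.988), Gpld1 (0.985) and Fxyd1 (0.981), and Acsbg1 to Ndrg2 (0.982), Tmem254b (0.945) and Pmm1 (0.943). Cpt1a and Lpl, which did not pass, had their highest values with Cdk20 (0.937), Commd10 (0.934) and Dock1 (0.928), and with Bbs9 (0.923), Fam110a (0.916) and Ccdc137 (0.912).

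In the authors' deposited gene ontology tables, Acsl3, Acsl6 and Acsbg1 stood among the genes of the first age cluster and Fabp7, Fabp5, Angptl4 and Pla2g3 among those of the second. For the first cluster, the gene ontology query counted 906 genes. The authors' deposited table gave this cluster an adjusted p of 1.56e-05 for fatty acid metabolic process (42 of 462 annotated genes). For lipid metabolic process it gave 1.68e-13 (111 of 1417). All 3 synthetases were listed under both terms. The clusters were made from these same libraries and are no separate evidence of direction.

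Other genes of fatty acid handling, in 7 lists by role that leave the 9 genes out, moved in both directions between P4 and P24. The lists too were chosen with earlier results of these data known, so their counts are descriptive. The counts below stand against 10.8% of all genes called higher and 7.33% called lower. Among genes of uptake and binding, 3 of 13 tested rose (23.1%) and 2 fell (15.4%). Mfsd2a, a transporter of lysophosphatidylcholine that carries docosahexaenoic acid, rose by 2.63 on the log2 scale (SE 0.25, limma adjusted p = 5.12e-07), and the acyl-CoA binding gene Acbd4 by 2.23 (SE 0.27). The acyl-CoA binding protein gene Dbi fell by 0.85 (SE 0.16, adjusted p = 0.000345) and the transport protein gene Slc27a1 fell by 0.49 (SE 0.15). In the list of synthetases and thioesterases, 5 of 17 rose (29.4%) and 1 fell (5.88%). The acetyl-CoA synthetase gene Acss2 rose by 2.37 (SE 0.24, adjusted p = 6.69e-07), the thioesterase gene Acot11 by 1.92 (SE 0.25) and Acsl1, another long-chain synthetase, by 1.82 (SE 0.33, adjusted p = 0.000245). Acot1, a cytosolic thioesterase that splits acyl-CoA, fell by 2.53 (SE 0.21, adjusted p = 6.84e-09).

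Of 25 tested genes of lipases, their regulators and lipid droplets, 8 rose (32%) and 0 fell in limma at P24 against P4, with an unadjusted p under 0.05 for 10 higher and 2 lower. The lipid droplet gene Cideb rose by 2.68 on the log2 scale (SE 0.32, adjusted p = 1.21e-06), and G0s2, an inhibitor of adipose triglyceride lipase, by 1.99 (SE 0.28). For the carnitine shuttle and beta-oxidation, 4 of 36 rose (11.1%) and 3 fell (8.33%), shares near those of all genes. Cpt2, the inner-membrane partner of Cpt1a, rose by 1.17 (SE 0.28, adjusted p = 0.00381) and the trifunctional protein subunit gene Hadhb by 1.02 (SE 0.17), while the peroxisomal carnitine octanoyltransferase gene Crot fell by 0.66 (SE 0.16). The list's median log2 change was 0.30, against 0.01 over all genes. Among phospholipases A2 and lysophospholipid enzymes, 2 of 23 rose and 2 fell (8.7% each), also near those shares: the acyltransferase gene Lpcat2 rose by 1.90 (SE 0.35) and its relative Lpcat1 fell by 1.23 (SE 0.19). Pla2g7, a secreted phospholipase A2, fell by 0.60 (SE 0.18), a smaller change than the -4.98 of Pla2g3.

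Fatty acid synthesis and desaturation had 6 of 28 genes higher (21.4%) and 2 lower (7.14%) at P24 than at P4. The elongase gene Elovl7 rose by 3.38 on the log2 scale (SE 0.34, limma adjusted p = 9.45e-08), the lipogenic regulator Thrsp by 2.90 (SE 0.28) and the stearoyl-CoA desaturase gene Scd1 by 1.90 (SE 0.39). Of the PPAR receptors, partners and targets, 3 of 17 rose and 3 fell (17.6% each). The mitochondrial carrier gene Ucp3 rose by 3.56 (SE 0.30, adjusted p = 4.26e-09), and the retinoid X receptor gene Rxrg fell by 2.51 (SE 0.25, adjusted p = 7.66e-08). Oligodendrocyte markers had a median of 2477 at P4 and 89430 at P24, and their part in the changes of these lists was not tested.

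**Figure D3:**
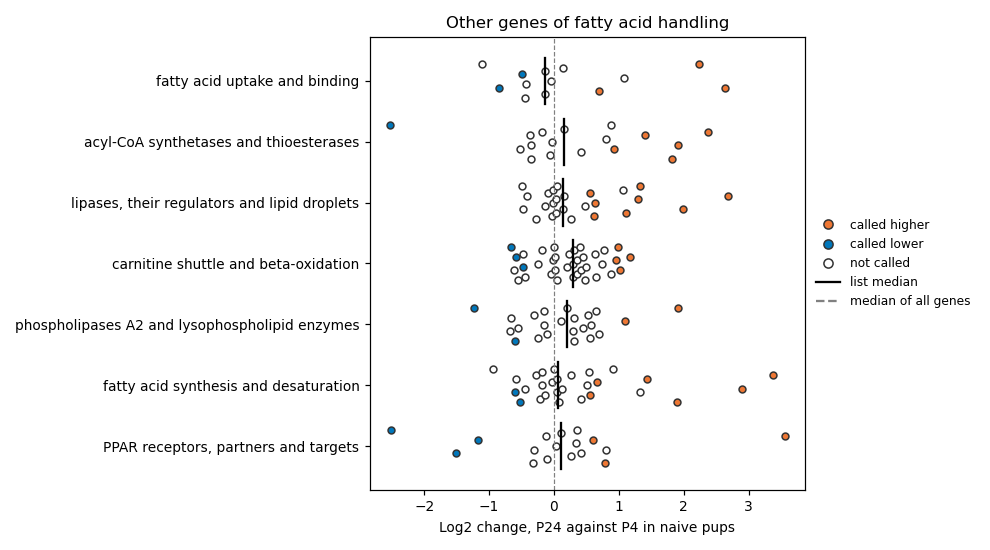
Log2 change from P4 to P24 in naive pups (horizontal axis) for each tested gene of 7 role lists that leave the 9 genes out. Orange points were called higher and blue points lower in limma, open points were not called, black ticks are list medians and the dashed line is the median over all genes; genes in 6 of the lists were called in both directions, and in the list of lipases and lipid droplets 8 rose and 0 fell.

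A further question of the study was the effect of the incision, and none of the 9 genes was called at any age. At P4, 1 day after incision, 4 of 14243 genes in the table were called (0.0281%), and 0 of the 9. At P10 and P24 limma called 0 of 13699 and 0 of 15246 genes (0% of each). Unadjusted p-values were under 0.05 for 1141 genes at P4, 638 at P10 and 1237 at P24, and for 2, 0 and 0 of the 9 genes. For all 9 genes the incised and naive libraries overlapped at each of the 3 ages. Over all genes tested, they did not overlap for 5.9% at P4, 2.48% at P10 and 4.96% at P24, so that 0 of 9 is near that share. In the authors' deposited tables, which give 76, 2 and 8 genes with an adjusted p under 0.05 at P4, P10 and P24, none of the 9 was among them.

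Acsl3 was 1 of the 2 genes with an unadjusted p under 0.05 at P4, where 8.01% of all genes had one. Its level was 433, 468, 516 and 402 in naive pups and 787, 646, 508 and 715 in incised pups. Of the incised libraries, 3 lay above every naive library and 1 lay among them. The log2 change was 0.57 (SE 0.20, limma adjusted p = 0.528), with a 95% interval from 0.13 to 1.01. Pla2g3 was the other, with 1883, 1913, 1940 and 2259 in naive pups and 781, 1888, 2062 and 1008 in incised pups. Here 2 incised libraries were far below the naive range and 2 were at its level. Its log2 change was -0.72 (SE 0.25, limma adjusted p = 0.527), and it was -0.41 without P4 incision replicate 1, the lowest library. Over all alternatives the change of Pla2g3 ran from -0.88 to -0.41. Markers of mural cells, the contractile cells of vessel walls, differed between the same groups: 8 of 9 were in the table, Myh11 was not, and their summed level ran from 403 to 654 in naive and from 771 to 1117 in incised pups. The 9 markers of oligodendrocyte precursors, all in the table, summed to between 1617 and 1872 in naive and between 1909 and 2835 in incised pups. The part of both marker lists in these values was not tested.

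The other 7 genes at P4 had log2 changes between -0.12 (Acsbg1) and 0.32 (Fabp7), with adjusted p from 0.746 to 0.998 in limma. The level of Fabp7 was 9785 ± 3540 (SD, n = 4) in naive pups and 11083 ± 2889 in incised pups. Fabp5 was at 1499 ± 229 and 1808 ± 405, Acsl6 at 1049 ± 141 and 1263 ± 186, and Acsbg1 at 3100 ± 522 and 3205 ± 1408. In the same order of groups, Angptl4 was at 743 ± 154 and 699 ± 178, Cpt1a at 284 ± 41.9 and 292 ± 76.8, and Lpl at 23.96 ± 6.46 and 21.1 ± 2.75. For Acsl6 the difference of means was larger than either SD, and none of these changes passed. The 95% interval for Fabp7, from -0.22 to 0.85, still allows a rise of the size estimated for Acsl3.

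At P10, 7 days after incision, log2 changes ran from -0.46 (Cpt1a, SE 0.30) to 0.77 (Lpl, SE 0.58), and the lowest adjusted p in limma was 0.968. Cpt1a was at 373 ± 52.7 (SD, n = 4) in naive pups and 294 ± 125 in incised pups, where 1 library at 131 stood below the others, at 266, 369 and 412. Without that library, P10 incision replicate 1, the change of Cpt1a was -0.07, and over all alternatives it ran from -0.82 to -0.07. For Lpl the naive libraries were at 13.2, 24.4, 6.88 and 13.3 and the incised ones at 24.5, 17.5, 33.1 and 20.6, so that 1 naive library lay within the incised range. Without P10 naive replicate 3, the lowest, the change of Lpl was 0.49, and over all alternatives it ran from 0.49 to 1.06. Acsl3 was at 2056 ± 302 and 1835 ± 342, Fabp7 at 4579 ± 1258 and 4307 ± 970, and Pla2g3 at 534 ± 202 and 429 ± 169. Without the 2 libraries with conflicting labels, 0 of the 9 genes passed, and the same held with the groups of the sample titles. The title groups counted P10 naive replicate 4 as incised and left out P10 incision replicate 4, whose title gives another age. In these 2 settings the log2 change of Pla2g3 moved from -0.31 to -0.53 (limma adjusted p = 0.934) and to -0.63 (adjusted p = 0.964), respectively.

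At P24, 21 days after incision, 7 of the 9 genes had a negative log2 change, the lowest being -0.45 for Angptl4 (SE 0.27, limma adjusted p = 0.681). At P10 too, 2 of the 9 were positive. The median at P24 was -0.20 over the 9 genes and -0.02 over all genes. In the role lists, positive changes at P24 ran from 4 of 35 genes (carnitine shuttle and beta-oxidation) to 10 of 22 (phospholipases A2 and lysophospholipid enzymes). The share of all genes with a positive or a negative change was not counted, so these counts of direction are descriptive. For Angptl4 the naive libraries were at 97.5, 64.9, 86.6 and 93.8 and the incised ones at 77.2, 49.5, 56.8 and 71.1, so that all but 1 naive library lay above the incised range. Acsl6 levels of 6517, 5665, 4765 and 4944 in naive pups stood against 4818, 4995, 4525 and 3870 in incised pups, a log2 change of -0.21 (SE 0.13, limma adjusted p = 0.691). Here 2 naive libraries were above all incised ones and 2 were among them. Acsbg1 was at 7080 ± 1079 (SD, n = 4) and 5975 ± 482, and Acsl3 at 3700 ± 350 and 3693 ± 688. For Acsl3 the 95% interval of the change, from -0.21 to 0.31, does not hold the 0.57 estimated at P4. That estimate has an SE of 0.20, and the difference of the 2 effects did not pass in limma (adjusted p = 0.470). Summed oligodendrocyte markers also differed between these groups, from 94580 to 108300 in naive and from 71590 to 85730 in incised pups, with all 12 in the table. Precursor markers ran from 5967 to 7854 and from 4344 to 5639, and the 9 endothelial markers in the table (Cdh5 and Tek were not) from 335.5 to 412 and from 422 to 615, in naive and incised pups respectively. The part of these cell types in the values above was not tested.

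**Figure D4:**
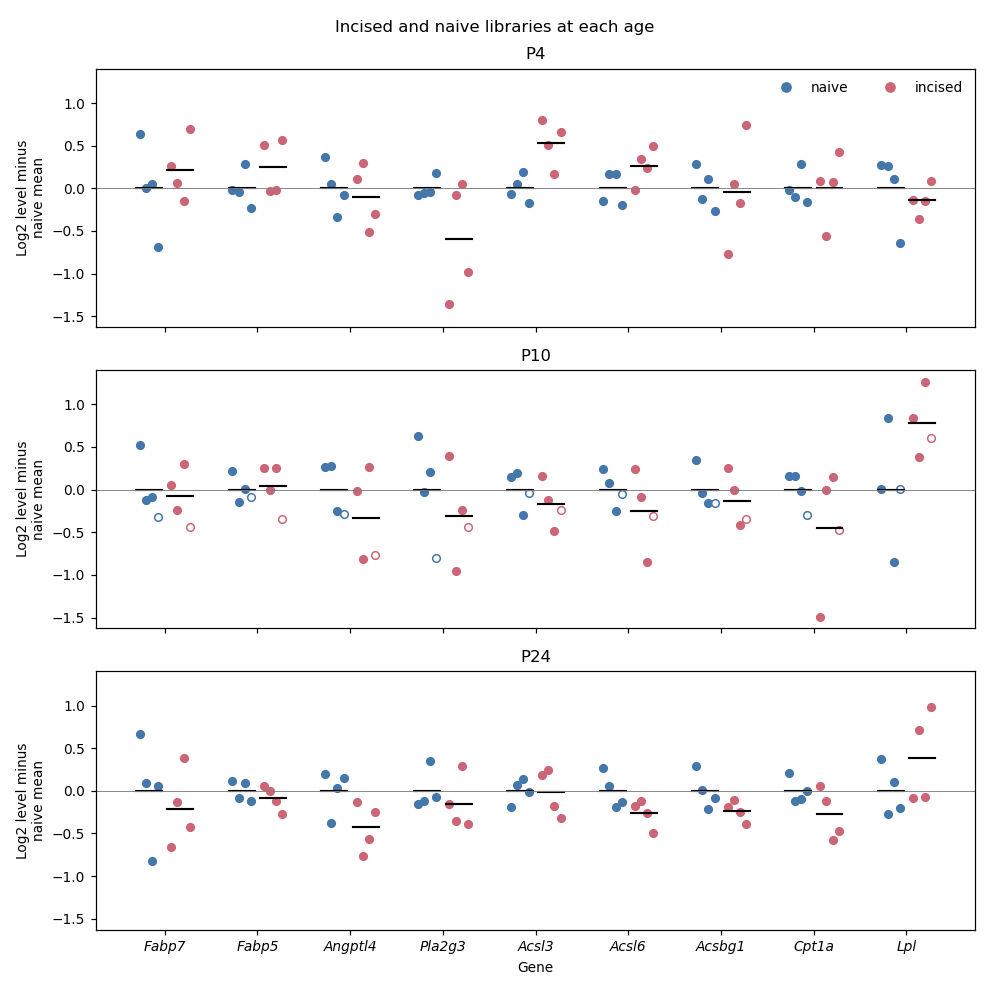
Log2 level of each library minus the mean of the naive libraries of the same age, for the 9 genes at P4, P10 and P24 (naive blue, incised red, bars are group means of 4, open points are the P10 libraries with conflicting labels). Incised and naive libraries overlap for all 9 genes at each age; Acsl3 at P4 has the highest incised mean of that age and Pla2g3 the lowest.

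Whether the effect of incision on a gene differed between ages was tested in 1 limma model over the 24 libraries of the 3 incision tables, with 13200 genes. For P10 against P4, 0.242% of genes passed and 0 of the 9. Acsl3 had the lowest adjusted p of the 9, with a difference of -0.77 on the log2 scale (SE 0.21, adjusted p = 0.0992), followed by Acsl6 at -0.57 (SE 0.24, adjusted p = 0.297). Both had an unadjusted p under 0.05, as did 1713 genes in all. Without P4 incision replicate 3, the incised library of lowest Acsl3, the difference for Acsl3 was -0.87 and passed (adjusted p = 0.0357). It passed under no other alternative: without the libraries with conflicting labels it was -0.77 (adjusted p = 0.162), and the adjusted p reached 0.194 without trend and robust settings. For P24 against P4, 0.0152% of genes passed and 0 of the 9, with Acsl3 at -0.55 (SE 0.21, adjusted p = 0.470) and Acsl6 at -0.53 (SE 0.24, adjusted p = 0.607). For P24 against P10, limma called 0% of genes and 480 had an unadjusted p under 0.05, none of them among the 9. In the 7 role lists, 0 genes were called in limma for incision at any age or for any of these differences. Unadjusted p-values there were under 0.05 for 17 of 153 genes at P4, 7 of 151 at P10 and 15 of 156 at P24. These are 11.1%, 4.64% and 9.62% of the list genes, against 8.01%, 4.66% and 8.11% of all genes. For the differences of the incision effect, the share was 16.2% of list genes against 13% of all genes for P10 against P4. It was 12.8% against 7.47% for P24 against P4, and 4.05% against 3.64% for P24 against P10.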

How the data were processed

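The signal values are normalized expression per gene and library that the authors made and deposited. STAR, Salmon and DESeq2 on mm10 were used, per the submitters' processing notes, and versions are not given in the sources used here. Each of the 4 tables was normalized on its own, so comparisons stay within a table, except that the difference of incision effects sets effects from 3 tables side by side. The deposited tables also hold log2 fold changes and p-values computed by the authors. The values are not whole reads, so depth is unknown. The authors kept genes by level and by spread within groups, per the notes deposited with the tables, so the tables leave out other genes.

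Groups came from the characteristics and sex from the deposited sample sheet, with 4 libraries per group. The titles contradict the characteristics for 2 libraries and the sheet's sex for 4. P-values measure the spread between mice, 1 library each. limma 3.58.1 (trend and robust, statmod 1.5.0, R 4.3.3) modelled log2(value + 1) on group plus sex, for genes with a mean of at least 10. Adjusted p-values are Benjamini-Hochberg over all genes of a fit, 2-sided, called under 0.05, and intervals are 95% from limma's moderated SE. The script was tested on simulated data. Members are named throughout. Of the role lists, up to 3 called genes per direction with the largest changes are eligible to be named, and patterns were matched by Pearson's r over genes with a mean of at least 50. Alternatives changed the pseudocount, the filter, the limma settings, the sex term, the scaling, the labels and the libraries. The members and lists were chosen with earlier results of these data known. Promoters and gene positions are from RefSeq and the GRCm38 annotation. Per-kilobase levels divide by the mean length of coding transcripts.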

Additional observations from a re-analysis of the deposited data

Results flagged for a closer look

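In 2 of 54 groups of 4 libraries tested over the 9 genes, 1 library stood apart from the other 3 by Dixon's criterion, and chance flags about 1 in 20 groups. Both concern Pla2g3 in naive pups, within the incision tables. At P4 the highest naive library, replicate 4, was at 2259, and its gap to the next library was 0.837 of the group's range. At P24 the highest naive library, replicate 3, was at 115, with a gap of 0.841 of the range. The P24 library is 1 of the 4 whose sex differs between the title and the deposited sheet.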

How the results depend on the processing

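How many of the 9 genes were called stayed within 1.5 times of the reported count under every alternative but 1. With a replicate left out in turn, the number called ran from 7 to 7 for any difference between ages, from 5 to 6 for P10 against P4, from 5 to 7 for P24 against P10 and from 7 to 7 for P24 against P4. It ran from 0 to 0 for incision at each age and from 0 to 1 for the difference of the incision effect between P10 and P4, the 1 being Acsl3 without P4 incision replicate 3. No called change of a member turned its direction. With each change of the 9 genes counted once per alternative, 13 cases gained a call, 5 lost it and 1827 stayed the same. The 13 were Fabp7 from P4 to P10 (8 alternatives), Cpt1a and Lpl from P10 to P24 (2 each) and the Acsl3 difference above (1). The 5 were all Acsl3 from P10 to P24. Lpl from P10 to P24 passed without trend and robust settings (limma adjusted p = 0.0463) and with the sexes of the titles (0.0480). Fabp7 from P4 to P10 passed with the titles' sexes (log2 change -1.20, adjusted p = 0.0111) and without P24 naive replicate 3 (0.00206). Over all genes, counts for incision moved from 4 to between 0 and 15 at P4, from 0 to between 0 and 8 at P10 and from 0 to between 0 and 16 at P24. Differences of the incision effect moved from 32 to between 1 and 120 for P10 against P4, from 2 to between 0 and 15 for P24 against P4, and from 0 to between 0 and 1 for P24 against P10. Age counts stayed within 1.5 times, except P24 against P10 at 1231 in place of 1963 without P24 naive replicate 4. Same-numbered libraries did not deviate together (correlations from -0.123 to 0.026), and the replicate block called 0 of the 9 genes at each age, with 4, 8 and 16 genes over all at P4, P10 and P24. The causes of these shifts were not tested. Depth is unknown, so the limit it sets on low genes such as Lpl cannot be given.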

Other observations

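Several genes of the role lists changed in 1 direction from P4 to P10 and in the other from P10 to P24 in naive pups, as values with no further test. Both steps share the P10 naive libraries, so error in the P10 mean moves them in opposite directions. The share of all genes with such a pattern was not counted. Calls here and below were not checked without the P10 library with conflicting labels. Ppargc1a, a coactivator of PPAR receptors and of mitochondrial genes, rose by 1.24 on the log2 scale (SE 0.15, limma adjusted p = 4.02e-06) and then fell by 0.64 (SE 0.15, adjusted p = 0.00565). Lrp1, a receptor for lipoproteins, rose by 1.07 (SE 0.15) and then fell by 0.51 (SE 0.15), while the lipoprotein receptor gene Vldlr fell by 0.70 (SE 0.19) and then rose by 0.72 (SE 0.20). The carnitine palmitoyltransferase gene Cpt1c fell by 0.50 (SE 0.16, limma adjusted p = 0.0432) and then rose by 0.52 (SE 0.17, adjusted p = 0.0412), both near the threshold.

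Other genes changed mainly in 1 interval. The lipogenic regulator Thrsp rose by 2.90 from P4 to P10 (SE 0.27, limma adjusted p = 2.58e-06) and had the same log2 change of 2.90 from P4 to P24. Acsl1 rose by 2.18 from P10 to P24 (SE 0.33, adjusted p = 6.63e-05), in the interval in which Acsbg1 did not pass. The acyl-CoA binding protein gene Dbi fell by 1.25 in that interval (SE 0.16, adjusted p = 6.35e-06), beside the fall of 1.31 in Fabp5. The mitochondrial carrier gene Ucp3 rose in both, by 1.67 (SE 0.29) and by 1.88 (SE 0.30).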
